A study of Mus musculus with 19 samples.

Results

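Interferon-stimulated genes were followed in the obstructed kidneys of 19 mice. The 47 genes were taken by symbol from the 54532 genes of the count table, and each symbol was found once. They were divided into 34 genes typical of the response to type I interferon and 13 genes typical of the response to interferon-gamma. The division followed textbook knowledge of the genes, and many genes of either class respond to both interferons.

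In the unilateral ureteral obstruction (UUO) model, the left ureter was ligated and cut, and the whole obstructed kidney was sequenced on day 12. CD5L is a protein secreted by macrophages, and rCD5L is its recombinant form. All mice were males of 8 to 9 weeks on the C57BL/6J background and all had UUO, so no unobstructed kidney was compared. Wild-type (WT) mice and mice lacking Cd5l (CD5L KO) received daily intraperitoneal injections of PBS or rCD5L at 0.5 mg per mouse. The groups held 5 WT kidneys with PBS, 5 WT kidneys with rCD5L, 4 CD5L KO kidneys with PBS and 5 CD5L KO kidneys with rCD5L.

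Type I interferons (IFN-alpha and IFN-beta) are released by cells that sense foreign or misplaced nucleic acid. Their receptor sets off a complex with STAT2 and IRF9 that binds the interferon-stimulated response element (ISRE). Interferon-gamma comes mainly from T cells and NK cells, and its response runs largely through the gamma-activated site (GAS). Tubular cells, macrophages and endothelial cells of the kidney carry both receptors, and interferon-stimulated genes are known to be expressed in injured kidneys.

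Promoter sequences were read to show how the classes differ in these sites. RefSeq windows from 250 bases before to 50 bases after the start site (build GRCm38.p6) were found for 36 of the 47 genes, 25 of the type I typical and 11 of the interferon-gamma typical. The letters searched on both strands were GAAANNGAAA for the ISRE and TTCNNNGAA for the GAS, and overlapping matches were counted. The ISRE letters were present for 14 of 25 type I typical genes (56%) and 8 of 11 interferon-gamma typical genes (72.7%), against 3.99% of all 27025 genes with a window. The GAS letters were present for 5 of 25 and 7 of 11 genes, against 9.55% of all genes with a window. In 1 gene, Bst2, an ISRE match overlapped a GAS match. Among further genes typical of type I interferon, 16 of 33 held the ISRE letters and 2 the GAS letters. Among further genes typical of interferon-gamma, 4 of 10 held the ISRE letters and 3 the GAS letters. Some windows belong to copies of a gene family, so they are not independent. A match describes the letters only.

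The last 120 bases before the start site are shown for 8 genes, chosen to cover promoters with the ISRE letters only, the GAS letters only or both. Capitals mark the matches, each sequence runs 5′ to 3′ along the gene, and positions are of GRCm38.p6.
Isg15 (chr4:156200819-156200938, minus strand): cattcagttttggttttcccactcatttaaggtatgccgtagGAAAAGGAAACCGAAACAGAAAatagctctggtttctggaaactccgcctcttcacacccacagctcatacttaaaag
Ifit1 (chr19:34640769-34640888, plus strand): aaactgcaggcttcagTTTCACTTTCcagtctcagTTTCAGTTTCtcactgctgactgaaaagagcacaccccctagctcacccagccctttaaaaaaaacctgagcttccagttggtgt
Oas1a (chr5:120907526-120907645, minus strand): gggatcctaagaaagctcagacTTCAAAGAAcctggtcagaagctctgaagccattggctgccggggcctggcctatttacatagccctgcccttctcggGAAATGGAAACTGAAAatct
Gbp2 (chr3:142620543-142620662, plus strand): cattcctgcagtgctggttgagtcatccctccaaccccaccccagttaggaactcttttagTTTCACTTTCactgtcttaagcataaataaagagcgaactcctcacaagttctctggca
Igtp (chr11:58199436-58199555, plus strand): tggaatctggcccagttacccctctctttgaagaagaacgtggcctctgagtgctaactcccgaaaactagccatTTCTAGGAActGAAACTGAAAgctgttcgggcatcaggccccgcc
Irgm2 (chr11:58214857-58214976, plus strand): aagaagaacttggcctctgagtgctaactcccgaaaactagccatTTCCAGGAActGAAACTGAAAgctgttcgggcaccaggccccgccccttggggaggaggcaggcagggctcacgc
Tgtp2 (chr11:49064213-49064332, minus strand): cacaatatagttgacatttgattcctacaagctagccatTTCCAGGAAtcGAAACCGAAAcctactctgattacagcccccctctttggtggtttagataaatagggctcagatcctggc
Irf1 (chr11:53769894-53770013, plus strand): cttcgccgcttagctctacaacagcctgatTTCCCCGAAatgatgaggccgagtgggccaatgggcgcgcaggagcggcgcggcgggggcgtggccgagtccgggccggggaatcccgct
Isg15 held 3 overlapping ISRE matches, Ifit1 held 2 separate ones on the opposite strand, and Gbp2 held 1. Irf1 held a GAS match and no ISRE match. Igtp, Irgm2 and Tgtp2 held a GAS match followed closely by an ISRE match, and Oas1a held both far apart. The stretches of Isg15, Oas1a, Igtp, Tgtp2 and Irf1 lay just outside the gene as the count table bounds it. That of Ifit1 reached 18 bases into the gene, that of Gbp2 61 bases, and that of Irgm2 lay wholly within it.

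Several gene families lay in clusters. The Ifit genes (Ifit2, Ifit3, Ifit3b and Ifit1) were on chromosome 19 between 34550694 and 34650009 of GRCm38. Oas2, Oas3, Oas1g and Oas1a were on chromosome 5 between 120730333 and 120907521. Gbp5, Gbp7, Gbp3 and Gbp2 were on chromosome 3 between 142493978 and 142638008. Chromosome 11 held 9 genes, among them the GTPases Irgm1, Igtp, Irgm2 and Tgtp2. Related family members (Ifit3 and Ifit3b, Oas1a and Oas1g, Ifi204 and Ifi207, the Gbp genes, Tgtp2 and its neighbour Tgtp1) could share reads to differing degrees, and Igtp overlapped Irgm2. How far reads were shared was not measured, so the split within these families is uncertain. Dhx58 overlapped an antisense gene, and the strand setting of the counting was not given in the sources used here.

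The total count per kidney was 17917491 to 23847090, and the 47 genes took 0.0938% to 0.262% of it. Cd5l had 0 counts in each of the 9 CD5L KO kidneys and 3 to 15 counts in the WT kidneys, where a count of 0 allows up to 3 counts. Every marker gene of the kidney and immune cell types examined, from podocytes to macrophages, had counts in every group. Several kidneys stood apart from their groups. Replicate 4 of the CD5L KO rCD5L group had a summed CPM (counts scaled by the TMM-adjusted library size) of 13073 over 6 proximal tubule markers against 871 to 2136 in the other 18 kidneys, and 814 CPM over 10 macrophage markers against 1983 to 3224. In replicate 3 of that group, the deviation of a gene from the group mean followed the GC content of its longest transcript, with a Spearman rho of 0.60 across 18439 genes and 0.85 across the 47, while in the other 18 kidneys the rho across the 47 lay between -0.56 and 0.35. Genes are not independent replicates, so these are descriptions. Class medians, and the genes whose fold changes are given for 1 comparison that holds this group, are given with and without these 2 kidneys.

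All 47 genes were detected in all kidneys and passed the filter on low counts. FPKM, the counts per length and library size, was used to set genes side by side. Ifi27l2a had the highest level (79.3 FPKM, mean over 19 kidneys), followed by Bst2 (66.8 FPKM), which tethers virus particles to the cell. Gbp2 came next (39.9 FPKM) and was the highest of the interferon-gamma typical genes, a guanylate-binding GTPase that acts against intracellular microbes. Ifit3 (29.5 FPKM) and Samd9l (27.8 FPKM) followed. The lowest levels were those of Oas3 (0.539 FPKM), Mx2 (0.990 FPKM), Gbp6 (1.02 FPKM) and Herc6 (1.30 FPKM). Ranges over kidneys overlapped between most neighbours in this order, as for Ifi27l2a (38.6 to 128 FPKM) and Bst2 (35.6 to 90.2 FPKM).

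**Figure D1:**
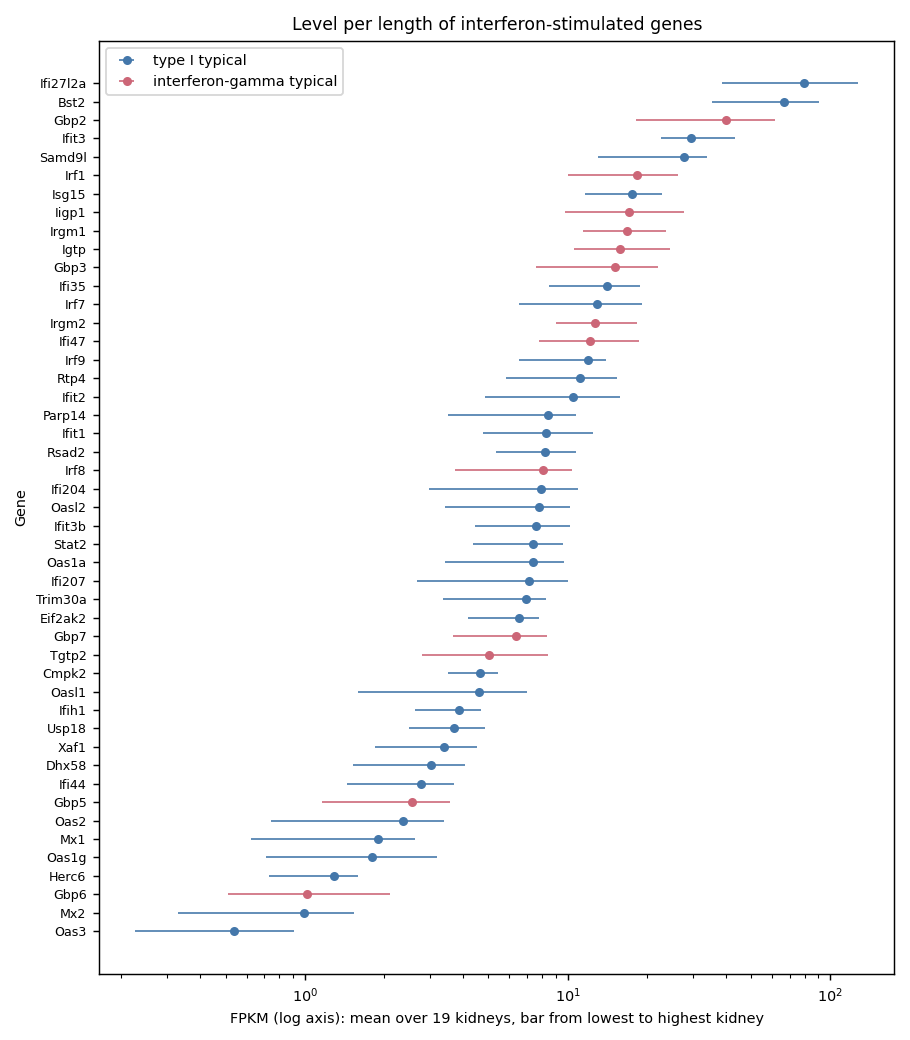
Mean FPKM of each gene over 19 kidneys on a log axis, with a bar from the lowest to the highest kidney, type I typical genes in blue and interferon-gamma typical genes in red. Levels run from 79.3 FPKM for Ifi27l2a to 0.539 FPKM for Oas3, and the interferon-gamma typical genes lie between 39.9 FPKM for Gbp2 and 1.02 FPKM for Gbp6.

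The interferons themselves were at the limit of detection. Of 21 interferon genes listed, 0 passed the filter. Ifnb1, the gene of IFN-beta, had 1 count in all 19 kidneys together, Ifna1 had 1, and the other 12 numbered Ifna genes of the list had 0. Ifng, the gene of interferon-gamma, had 103 counts in all, from 0 to 18 per kidney with a median of 4, and the highest counts were in replicate 1 of the WT rCD5L group (18) and replicate 1 of the WT PBS group (15). Differences in these genes were not detectable at this depth. All 6 receptor genes and all 13 signalling genes of the lists were expressed.

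The first comparison asked how the loss of CD5L changed these genes in PBS-treated UUO kidneys. Called genes were those with an edgeR adjusted p under 0.05. Of the 47 genes, 0 were called, while 10.5% of all 17579 genes tested were called (1850 genes). DESeq2 called 2571 genes (17.8%) and 2 of the 47, Ifi27l2a and Oas2. At an unadjusted p under 0.05 there were 7 of 34 type I typical genes and 0 of 13 interferon-gamma typical genes, against 26.6% of all genes. No gene of the 47 had groups that did not overlap, against 14.1% of all genes. The type I typical genes had a median log2 fold change (CD5L KO minus WT) of 0.00, with 17 of 34 above 0, and the interferon-gamma typical genes a median of 0.13, with 9 of 13 above 0, where 49.3% of all genes were above 0 with a median of 0.00. Single kidneys turned these medians. The interferon-gamma median was -0.09 without replicate 1 of the CD5L KO PBS group and 0.38 without replicate 1 of the WT PBS group, and the type I median ran from -0.14 without the former to 0.08 without replicate 3 of the CD5L KO PBS group.

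Within the type I class the values went both ways. Ifi27l2a (ENSMUSG00000079017, chromosome 12, 103442167 to 103443680) came closest to the threshold. Ifi27l2a was at 48.2, 42.1, 29.2, 43.5 and 33.6 CPM in WT mice given PBS and at 36.9, 42.98, 42.9, 42.9 and 38.8 CPM in WT mice given rCD5L. Ifi27l2a in CD5L KO mice was at 72.97, 52.7, 55.5 and 45.3 CPM with PBS and at 41.5, 51.4, 72.8, 23.1 and 36.6 CPM with rCD5L. With PBS, 3 of the 4 CD5L KO kidneys were above all WT kidneys, and the remaining kidney was within the WT range. The means were 56.6 ± 11.7 CPM (SD, n = 4) and 39.3 ± 7.73 CPM (SD, n = 5), with a log2 fold change of 0.52 ± 0.15 (SE, 95% interval 0.18 to 0.85, edgeR adjusted p = 0.051).

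Of the genes that lay lower in CD5L KO kidneys, the smallest p-values were those of Rsad2 and Cmpk2, neighbours on chromosome 12 (26442746 to 26456452 and 26469204 to 26479837). Rsad2 encodes viperin, which makes an antiviral nucleotide, and Cmpk2 is a mitochondrial nucleotide kinase. Rsad2 was at 44.3, 56.99, 42.6, 53.5 and 46.7 CPM in WT mice given PBS and at 51.7, 50.99, 44.6, 45.8 and 44.7 CPM in WT mice given rCD5L. Rsad2 in CD5L KO mice was at 48.6, 38.2, 36.8 and 36.6 CPM with PBS and at 41.03, 36.1, 28.7, 32.6 and 41.96 CPM with rCD5L. All WT kidneys with PBS were above 3 of the 4 CD5L KO kidneys with PBS. The log2 fold change was -0.29 (95% interval -0.52 to -0.06, edgeR adjusted p = 0.10) for Rsad2 and -0.25 (95% interval -0.44 to -0.05, edgeR adjusted p = 0.11) for Cmpk2. Oas2, Oasl2 and Stat2 had log2 fold changes of -0.50 (95% interval -0.90 to -0.09, edgeR adjusted p = 0.11), -0.34 (95% interval -0.65 to -0.02, edgeR adjusted p = 0.16) and -0.28 (95% interval -0.53 to -0.03, edgeR adjusted p = 0.14). With all kidneys, none of the 5 passed the test. With 1 kidney left out, the values were -0.40 to -0.23 for Rsad2 and -0.35 to -0.17 for Cmpk2. They were -0.71 to -0.35 for Oas2, -0.51 to -0.23 for Oasl2 and -0.38 to -0.17 for Stat2. Rsad2 and Cmpk2 also had the largest share of variance between the 4 groups, 56.9% and 51.99%, where the median was 22.3% for the type I class, 9.09% for the interferon-gamma class and 24.2% for all genes.

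Replicate 1 of the CD5L KO PBS group was above its group mean for 34 of 34 type I typical and 13 of 13 interferon-gamma typical genes. Without it, 4 of the 47 genes were called (Oasl2, Cmpk2, Rsad2 and Oas2, all lower in CD5L KO), against 5.83% of all genes. Replicate 1 of the WT PBS group was above its group mean for 13 of 13 interferon-gamma typical genes, and without it 2 were called (Ifi27l2a and Ifi47, both higher in CD5L KO), against 9.94% of all genes. Markers of several cell types moved with this comparison. Endothelial markers (2 of 5 called, both lower) had summed levels of 408 to 485 CPM in CD5L KO and 509 to 572 CPM in WT kidneys. Fibroblast markers (3 of 4 called, all lower) had 1178 to 1579 CPM against 1556 to 2223 CPM. Of the podocyte markers 1 of 3 and of the macrophage markers 1 of 10 (Csf1r) was called as lower, with sums of 111 to 134 CPM against 124 to 149 CPM and of 1983 to 3224 CPM against 2194 to 2877 CPM. Urothelial markers (0 of 3 called, median log2 fold change 0.82) had 128 to 217 CPM against 14.9 to 115 CPM. Their part in the result was not tested, and in whole kidneys fewer cells of a type cannot be told apart from less RNA per cell.

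The second comparison asked what rCD5L changed in WT mice. Of the 47 genes, 0 were called, as of all 17455 genes tested (0%). DESeq2 called 508 genes (3.82%) and 2 of the 47, Parp14 and Oas3. Values above 0 were found for 28 of 34 type I typical genes and 13 of 13 interferon-gamma typical genes, where 51.3% of all genes were above 0. The median log2 fold change (rCD5L minus PBS) was 0.13 and 0.23, against 0.00 over all genes. At an unadjusted p under 0.05 there were 9 type I typical genes, all higher, and 0 interferon-gamma typical genes, against 16% of all genes. Because the genes vary together from kidney to kidney, these counts are not independent.

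Parp14 (ENSMUSG00000034422, chromosome 16, 35832874 to 35871544), an ADP-ribosyltransferase, was the 1 gene of the 47 whose groups did not overlap, against 3.6% of all genes. Parp14 was at 108, 87.4, 82.7, 100.3 and 94.4 CPM in WT mice given PBS and at 109, 117, 121, 111 and 118 CPM in WT mice given rCD5L. Parp14 in CD5L KO mice was at 105, 91.2, 73.6 and 95.7 CPM with PBS and at 85.2, 103, 54.3, 42.2 and 112 CPM with rCD5L. The lowest WT kidney with rCD5L was just above the highest WT kidney with PBS, and the highest CD5L KO kidney with rCD5L reached the same level. Parp14 had a log2 fold change of 0.29 ± 0.07 (SE, 95% interval 0.15 to 0.44, edgeR adjusted p = 0.10) and did not pass the test.

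Members of the Oas family, which make the oligoadenylates that activate RNase L, and Irf7 had the next smallest p-values. Oas3 had a log2 fold change of 0.60 (95% interval 0.22 to 0.98, edgeR adjusted p = 0.14), Oas1a of 0.33 (95% interval 0.11 to 0.55, edgeR adjusted p = 0.15) and Oas1g of 0.49 (95% interval 0.15 to 0.84, edgeR adjusted p = 0.16). Irf7, the factor that amplifies type I interferon production, had a log2 fold change of 0.25 (95% interval 0.08 to 0.43, edgeR adjusted p = 0.16). Their groups overlapped. All 13 interferon-gamma typical genes lay above 0, but with wide intervals, as Gbp2 at 0.35 (95% interval -0.14 to 0.84, edgeR adjusted p = 0.48) and Igtp at 0.25 (95% interval -0.18 to 0.67, edgeR adjusted p = 0.58). Replicate 1 of the WT PBS group again decided calls. Without it, Gbp2 had a log2 fold change of 0.68 and Igtp of 0.56, Parp14, Irgm2 and Igtp were called, against 0.222% of all genes, and the median of the interferon-gamma class was 0.43, while without replicate 4 of that group the median was 0.11 and the value of Gbp2 0.23. Without replicate 5 of that group Igtp had 0.17. Summed T cell markers (7 genes) were 72.6 CPM in replicate 1 of the WT PBS group and 33.2 to 39.3 CPM in the other 4 of that group. They were 47.4 to 85.2 CPM in WT kidneys with rCD5L. Proximal tubule markers (6 of 6 lower, 3 at an unadjusted p under 0.05, 0 called) had summed levels of 871 to 1385 CPM with rCD5L and 1021 to 2136 CPM with PBS. Endothelial markers (4 of 5 lower, 3 at an unadjusted p under 0.05, 0 called) had 462 to 512 CPM and 509 to 572 CPM. Their part in the result was not tested.

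**Figure D2:**
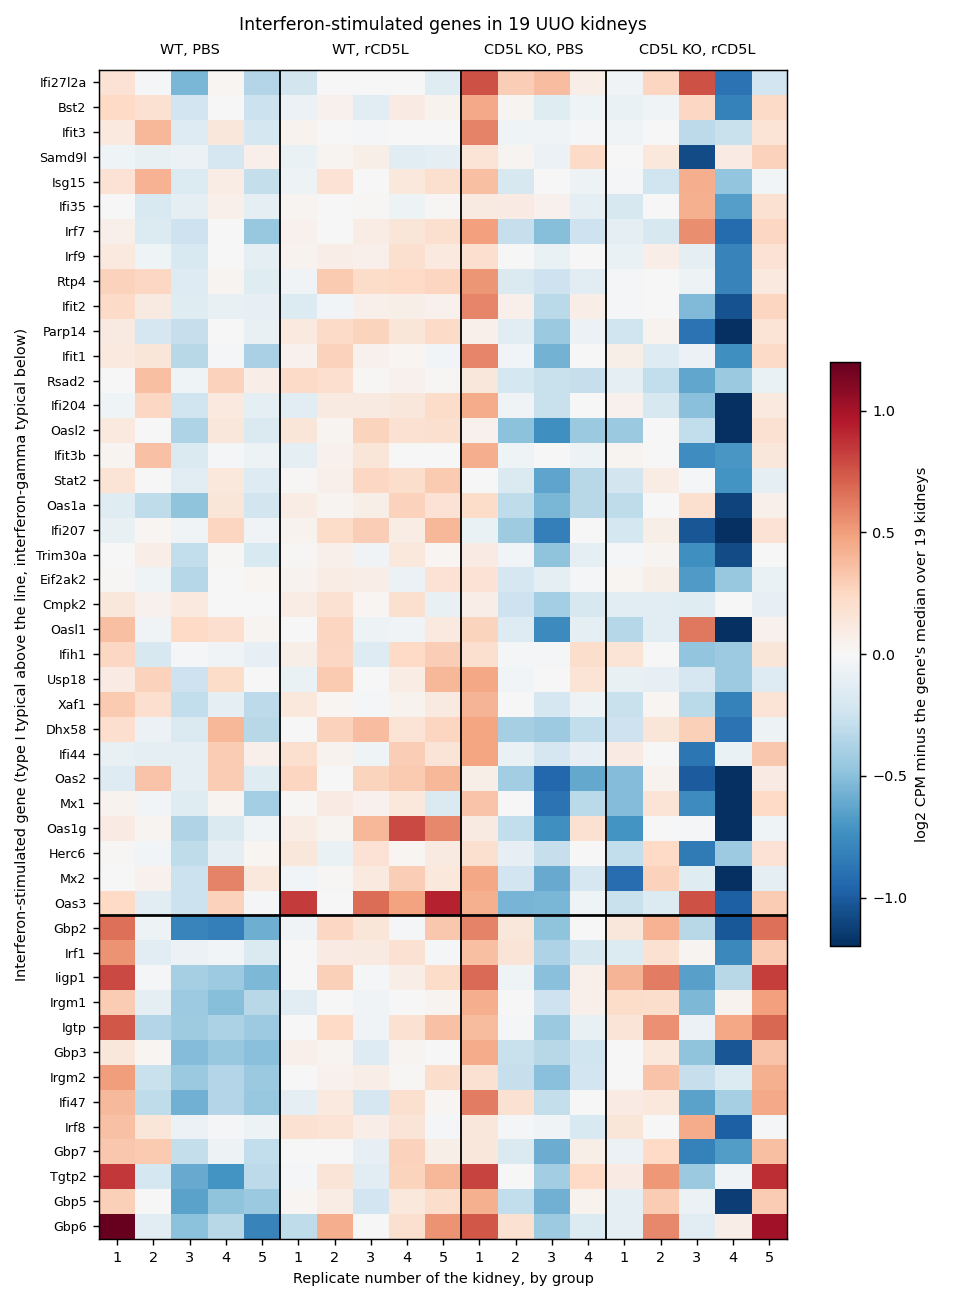
log2 CPM of 47 genes in 19 kidneys, each row relative to its gene's median, from blue (lower) to red (higher), with type I typical genes above the line and interferon-gamma typical genes below. Replicate 1 of WT with PBS is high below the line, replicate 1 of CD5L KO with PBS is high throughout, and replicate 4 of CD5L KO with rCD5L is low for most type I typical genes.

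The third comparison asked what rCD5L changed in CD5L KO mice. Of the 47 genes, 0 were called, as of all 17467 genes tested (0%). DESeq2 called 3 genes and 0 of the 47. At an unadjusted p under 0.05 there was 1 gene, Usp18, against 2.87% of all genes, and Usp18 was also the 1 gene whose groups did not overlap, against 2.35% of all genes. Usp18 removes ISG15 from proteins and dampens the type I receptor. Usp18 was at 13.01, 14.7, 10.2, 14.1 and 12.2 CPM in WT mice given PBS and at 11.5, 15.1, 12.1, 12.9 and 15.97 CPM in WT mice given rCD5L. Usp18 in CD5L KO mice was at 16.7, 11.9, 12.1 and 13.5 CPM with PBS and at 11.4, 11.3, 10.5, 8.97 and 10.9 CPM with rCD5L. The rCD5L kidneys of CD5L KO mice were all below the PBS kidneys of that genotype. Usp18 had a log2 fold change of -0.36 ± 0.15 (SE, 95% interval -0.69 to -0.03, edgeR adjusted p = 0.90), or -0.27 (adjusted p = 0.55) without replicates 3 and 4 of the rCD5L group. Values above 0 were found for 8 of 34 type I typical and 7 of 13 interferon-gamma typical genes, against 53.5% of all genes, with medians of -0.15 and 0.00 against 0.02 over all genes. Without replicates 3 and 4 of the rCD5L group, the medians were 0.02 and 0.30, and 0 of the 47 genes were called. The sign of the type I median changed between these settings. With 1 kidney left out, the type I median ran from -0.23 and the interferon-gamma median from -0.12 (both without replicate 5 of the rCD5L group) to -0.02 and 0.17 (both without replicate 1 of the PBS group). Proximal tubule markers (6 of 6 higher, 1 at an unadjusted p under 0.05) had a median log2 fold change of 1.29. Their sums were 13073 CPM in replicate 4 with rCD5L, 1200.5 to 2085 CPM in the other rCD5L kidneys and 916 to 1726 CPM with PBS. Dendritic cell markers (6 of 6 lower, 0 at that level) had a median of -0.28 and urothelial markers (3 of 3 lower, 1 at that level) of -0.58. Of these markers 0 were called, and their part in the result was not tested.

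The fourth comparison set CD5L KO against WT mice, both given rCD5L. It shares its kidneys with the comparisons of rCD5L above, so its values are not independent of theirs. Of the 47 genes, 0 were called, as of all 17360 genes tested (0%). DESeq2 called 64 genes and 0 of the 47. Values above 0 were found for 1 of 34 type I typical genes and 5 of 13 interferon-gamma typical genes, against 48.9% of all genes, and the median log2 fold changes (CD5L KO minus WT) were -0.28 and -0.05 against -0.01. At an unadjusted p under 0.05 there were 7 type I typical genes, all lower in CD5L KO, and 0 interferon-gamma typical genes, against 17.8% of all genes. Groups did not overlap for Rsad2, Oas1g and Usp18, against 7.52% of all genes.

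Rsad2 had a log2 fold change of -0.42 ± 0.12 (SE, 95% interval -0.69 to -0.15, edgeR adjusted p = 0.26). With all 19 kidneys in 1 fit it was called (edgeR adjusted p = 0.046), against 7% of all genes. Oas1g and Usp18 had log2 fold changes of -0.75 (95% interval -1.31 to -0.18, edgeR adjusted p = 0.26) and -0.37 (95% interval -0.66 to -0.08, edgeR adjusted p = 0.26). Oas2, Parp14 and Stat2 had log2 fold changes of -0.74 (95% interval -1.36 to -0.11, edgeR adjusted p = 0.26), -0.55 (95% interval -1.07 to -0.03, edgeR adjusted p = 0.27) and -0.37 (95% interval -0.68 to -0.06, edgeR adjusted p = 0.26). Without replicates 3 and 4 of the CD5L KO rCD5L group, the log2 fold changes were -0.27 for Rsad2, -0.64 for Oas1g, -0.28 for Usp18, -0.37 for Oas2, -0.21 for Parp14 and -0.26 for Stat2, and none of these passed the test. In the same setting the class medians were -0.11 and 0.22, and 2 interferon-gamma typical genes, Irgm1 (0.33) and Iigp1 (0.50), were called as higher in CD5L KO, against 3.58% of all genes. The interferon-gamma median ran from -0.15 (without replicate 5 of that group) to 0.08 (without replicate 3). With all kidneys, Irgm1 had a log2 fold change of 0.14 (95% interval -0.23 to 0.50, edgeR adjusted p = 0.67) and Iigp1 of 0.15 (95% interval -0.40 to 0.69, edgeR adjusted p = 0.77). The value of Irgm1 ran from 0.03 without replicate 5 of the CD5L KO rCD5L group to 0.27 without replicate 3. Markers of several cell types moved with this comparison, with 0 called. Proximal tubule markers (6 of 6 higher, 4 at an unadjusted p under 0.05, median log2 fold change 1.59) had sums of 1200.5 to 13073 CPM in CD5L KO kidneys, or up to 2085 CPM without replicate 4, and 871 to 1385 CPM in WT kidneys. Podocyte markers (3 of 3 lower, all at an unadjusted p under 0.05) had 74.96 to 127 CPM against 121 to 149 CPM. Endothelial markers (4 of 5 lower, 2 at that level) had 387 to 455 CPM against 462 to 512 CPM. Fibroblast markers (4 of 4 lower, 1 at that level) had 574 to 2368 CPM against 1586 to 2092 CPM, and collecting duct markers (3 of 3 higher, 1 at that level) had 138 to 395 CPM against 117 to 213 CPM. Markers of macrophages (10 of 10 lower), dendritic cells (6 of 6 lower) and T cells (7 of 7 lower) had median log2 fold changes of -0.25, -0.41 and -0.36, with 0 at an unadjusted p under 0.05. Their part in the result was not tested.

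The difference between the response to rCD5L in CD5L KO and in WT mice was tested as an interaction over all 19 kidneys. Of the 47 genes, 0 were called, as of all 18454 genes tested (0%), and 1 type I typical gene, Usp18, had an unadjusted p under 0.05, against 6.25% of all genes. DESeq2 gave 0 called genes too. The log2 difference of Usp18 was -0.42 (95% interval -0.81 to -0.03, edgeR adjusted p = 0.73). The median log2 difference was -0.28 for the type I class, with 2 of 34 above 0, and -0.08 for the interferon-gamma class, with 4 of 13 above 0, against 53% and 0.02 over all genes. Without replicates 3 and 4 of the CD5L KO rCD5L group, the medians were -0.08 and 0.08 and the value of Usp18 was -0.35 (edgeR adjusted p = 0.97). Leaving out replicate 1 of the CD5L KO PBS group gave medians of -0.10 and 0.05, and leaving out replicate 1 of the WT PBS group gave -0.28 for both. Proximal tubule markers (6 of 6 above 0, 5 at an unadjusted p under 0.05, 0 called) had a median log2 difference of 1.66. Their sum was 13073 CPM in replicate 4 of the CD5L KO rCD5L group and 1200.5 to 2085 CPM in the others of that group. T cell markers (7 of 7 below 0, 0 at that level) had a median of -0.46. The part of these markers in the result was not tested.

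**Figure D3:**
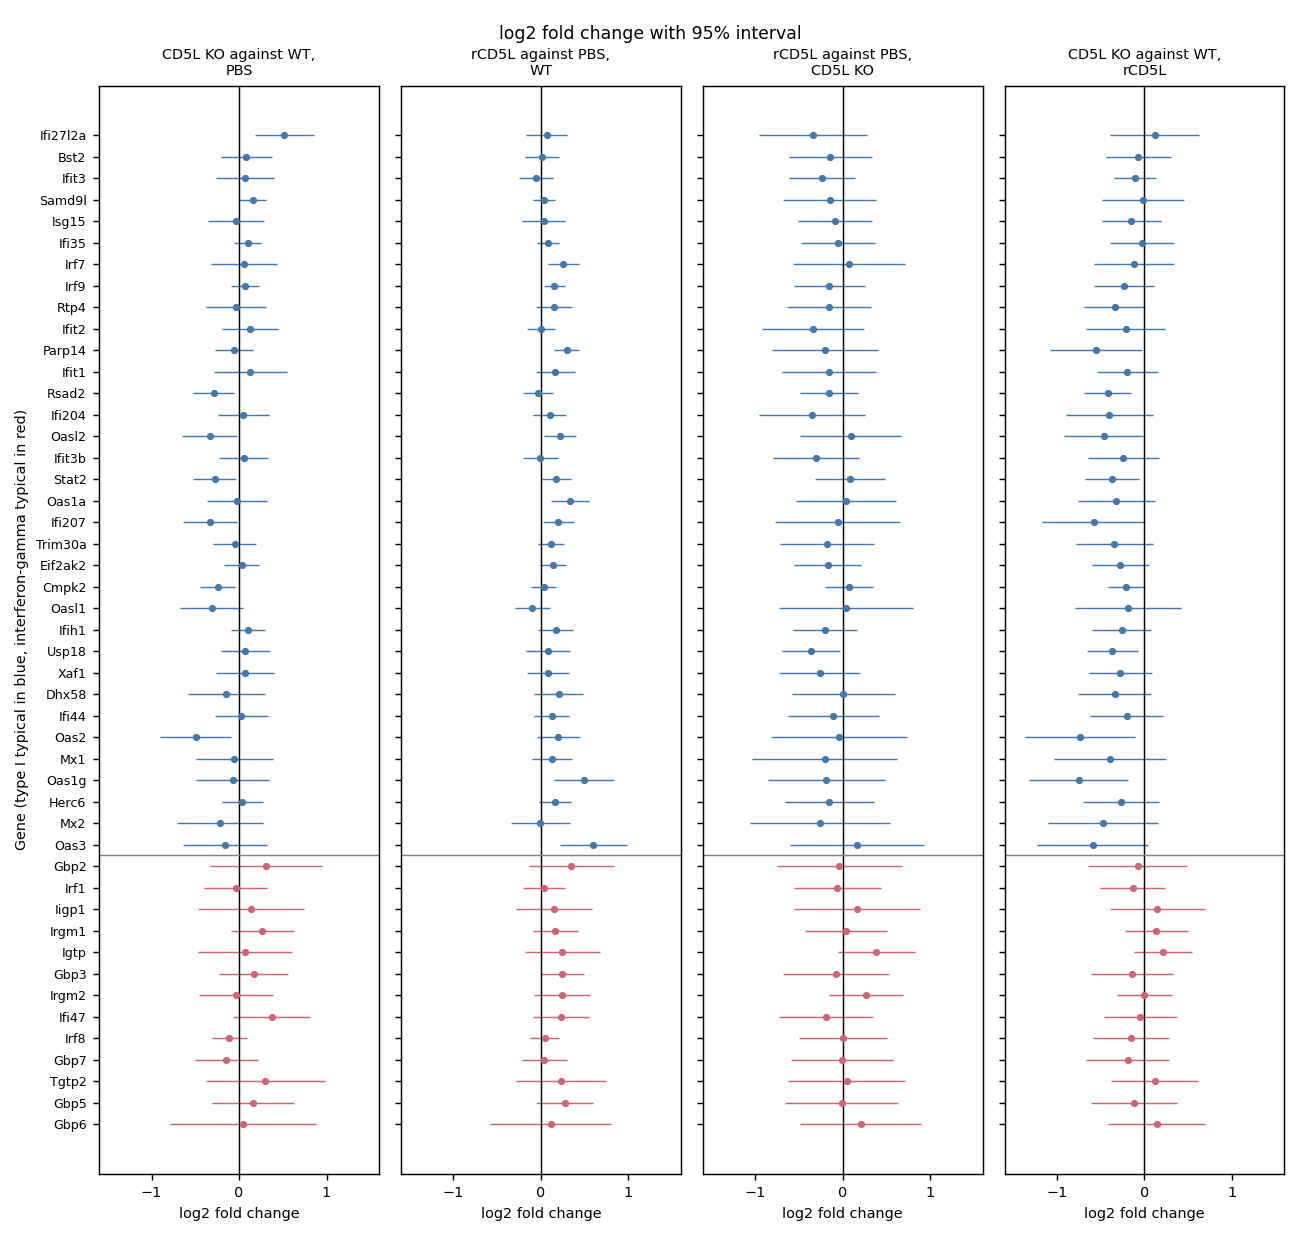
log2 fold change of each gene with its 95% interval in the 4 pairwise comparisons, type I typical genes in blue and interferon-gamma typical genes in red. For most genes, though not all, the interval is narrowest for rCD5L against PBS in WT mice, where 41 of 47 values lie above 0. For CD5L KO against WT with rCD5L, 33 of 34 type I typical values lie below 0.

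The values of single genes are given by role, in the order of the replicate numbers. Isg15 encodes a ubiquitin-like protein that is attached to other proteins. Isg15 was at 17.9, 21.1, 14.1, 16.9 and 12.9 CPM in WT mice given PBS and at 15.2, 17.9, 15.8, 17.3 and 18.1 CPM in WT mice given rCD5L. Isg15 in CD5L KO mice was at 20.4, 13.8, 15.8 and 15.2 CPM with PBS and at 15.6, 13.4, 21.4, 11.4 and 15.4 CPM with rCD5L. The 4 groups overlapped, with the highest values in replicate 3 of the CD5L KO rCD5L group and replicate 2 of the WT PBS group. Isg15 had log2 fold changes of -0.15 to 0.03 over the 4 comparisons, and the smallest edgeR adjusted p was 0.60. Bst2 was the more abundant of the antiviral effectors. Bst2 was at 86.3, 83.3, 62.3, 73.2 and 61.1 CPM in WT mice given PBS and at 69.8, 76.1, 66.6, 78.6 and 75.5 CPM in WT mice given rCD5L. Bst2 in CD5L KO mice was at 100.5, 74.8, 66.3 and 70.6 CPM with PBS and at 69.5, 71.2, 87.1, 41.6 and 85.6 CPM with rCD5L. The groups overlapped, and the lowest value was that of replicate 4 with rCD5L. Bst2 had log2 fold changes of -0.14 to 0.08 over the 4 comparisons, and the smallest edgeR adjusted p was 0.74.

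Ifit1 binds viral RNA. Ifit1 was at 29.4, 30.1, 21.6, 26.7 and 20.8 CPM in WT mice given PBS and at 28.2, 32.98, 28.1, 27.6 and 26.7 CPM in WT mice given rCD5L. Ifit1 in CD5L KO mice was at 40.9, 26.5, 18.4 and 27.2 CPM with PBS and at 28.5, 24.4, 25.8, 16.3 and 31.99 CPM with rCD5L. The highest CD5L KO kidney with PBS and the lowest with rCD5L bounded all others. Ifit1 had log2 fold changes of -0.20 to 0.16 over the 4 comparisons, and the smallest edgeR adjusted p was 0.46. Mx1 encodes an antiviral dynamin-like GTPase, which C57BL/6 mice are known to carry in a defective form. Mx1 was at 9.91, 9.41, 8.75, 9.88 and 7.28 CPM in WT mice given PBS and at 9.77, 10.4, 10.01, 10.5 and 8.54 CPM in WT mice given rCD5L. Mx1 in CD5L KO mice was at 12.3, 9.65, 5.21 and 7.70 CPM with PBS and at 6.71, 10.8, 5.72, 3.07 and 11.4 CPM with rCD5L. WT kidneys were close to each other, and CD5L KO kidneys spread on both sides of them. Mx1 had log2 fold changes of -0.39 to 0.13 over the 4 comparisons, and the smallest edgeR adjusted p was 0.47.

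Oas2 belongs to the same family as Oas3. Oas2 was at 12.4, 17.4, 12.7, 16.97 and 12.5 CPM in WT mice given PBS and at 16.4, 13.8, 16.5, 17.1 and 18.2 CPM in WT mice given rCD5L. Oas2 in CD5L KO mice was at 14.4, 10.3, 7.19 and 9.00 CPM with PBS and at 9.58, 14.2, 6.88, 4.29 and 14.7 CPM with rCD5L. Of the 9 CD5L KO kidneys, 6 were below every WT kidney, and the other 3 were replicate 1 with PBS and replicates 2 and 5 with rCD5L. Ifih1 senses double-stranded RNA. Ifih1 was at 44.7, 32.97, 37.1, 36.6 and 35.3 CPM in WT mice given PBS and at 39.5, 44.8, 33.9, 44.5 and 46.1 CPM in WT mice given rCD5L. Ifih1 in CD5L KO mice was at 43.2, 37.4, 37.3 and 43.7 CPM with PBS and at 42.1, 37.7, 27.2, 27.8 and 41.7 CPM with rCD5L. The lowest values were those of replicates 3 and 4 with rCD5L, and the groups overlapped. Ifih1 had log2 fold changes of -0.26 to 0.17 over the 4 comparisons, and the smallest edgeR adjusted p was 0.38.

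Among the transcription factors, Irf7 differed widely between kidneys of CD5L KO mice. Irf7 was at 63.5, 54.5, 51.3, 60.96 and 44.5 CPM in WT mice given PBS and at 63.1, 60.9, 64.7, 67.3 and 69.4 CPM in WT mice given rCD5L. Irf7 in CD5L KO mice was at 85.6, 50.2, 42.9 and 51.3 CPM with PBS and at 56.5, 53.4, 89.9, 32.04 and 72.4 CPM with rCD5L. WT kidneys with rCD5L lay closest together. Stat2 is part of the complex that binds the ISRE. Stat2 was at 61.6, 55.03, 50.2, 59.7 and 49.4 CPM in WT mice given PBS and at 55.5, 57.3, 65.3, 63.4 and 68.3 CPM in WT mice given rCD5L. Stat2 in CD5L KO mice was at 54.9, 48.7, 35.4 and 43.7 CPM with PBS and at 47.1, 58.4, 53.9, 33.3 and 50.8 CPM with rCD5L. Every WT kidney with rCD5L was above 4 of the 5 CD5L KO kidneys with rCD5L.

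**Figure D4:**
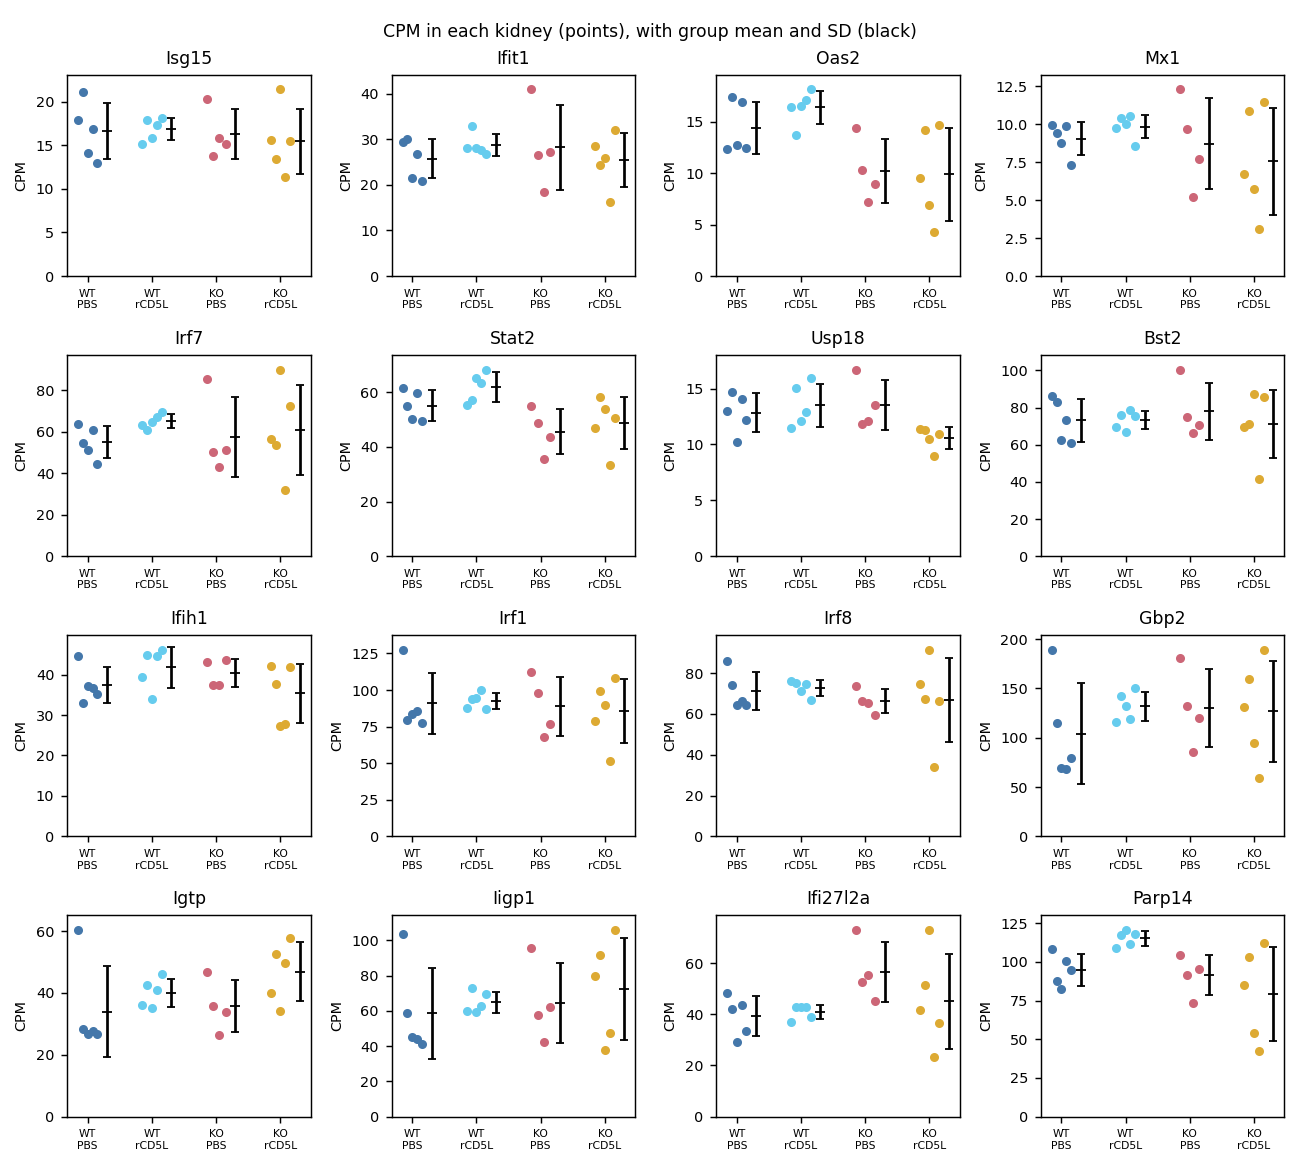
CPM of 16 genes in each kidney (points), with the group mean and SD in black, on axes that start at 0. Spread is widest in CD5L KO mice given rCD5L for most type I typical genes, and 1 WT kidney with PBS lies far above its group for Gbp2, Igtp, Iigp1 and Irf1.

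Of the interferon-gamma class, Irf1 encodes a transcription factor that interferon-gamma induces directly. Irf1 was at 127, 79.7, 83.5, 85.99 and 77.7 CPM in WT mice given PBS and at 87.8, 94.1, 94.6, 99.7 and 86.9 CPM in WT mice given rCD5L. Irf1 in CD5L KO mice was at 112, 98.1, 67.9 and 76.8 CPM with PBS and at 78.6, 99.4, 89.7, 51.4 and 109 CPM with rCD5L. The highest value was that of replicate 1 of the WT PBS group. Irf1 had log2 fold changes of -0.14 to 0.04 over the 4 comparisons, and the smallest edgeR adjusted p was 0.68. Irf8 encodes a factor of macrophages and dendritic cells. Irf8 was at 86.03, 74.3, 64.3, 66.4 and 64.3 CPM in WT mice given PBS and at 76.4, 75.4, 71.2, 74.7 and 66.8 CPM in WT mice given rCD5L. Irf8 in CD5L KO mice was at 73.8, 66.3, 65.3 and 59.3 CPM with PBS and at 74.6, 67.3, 91.4, 34.2 and 66.6 CPM with rCD5L. WT kidneys and CD5L KO kidneys with PBS overlapped, and both extremes were in CD5L KO mice given rCD5L. Irf8 had log2 fold changes of -0.15 to 0.05 over the 4 comparisons, and the smallest edgeR adjusted p was 0.50.

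Gbp2 was the most abundant of the class. Gbp2 was at 189, 115, 69.2, 67.8 and 79.6 CPM in WT mice given PBS and at 116, 142, 133, 119 and 150.1 CPM in WT mice given rCD5L. Gbp2 in CD5L KO mice was at 181, 132, 85.8 and 119.6 CPM with PBS and at 131, 159, 94.8, 59.2 and 189 CPM with rCD5L. Replicate 1 was far above the other 4 WT kidneys with PBS, and all 4 of those lay below every WT kidney with rCD5L. With PBS, CD5L KO against WT had a log2 fold change of 0.31 (95% interval -0.33 to 0.94, edgeR adjusted p = 0.55), or 0.10 without replicate 1 of the CD5L KO PBS group and 0.64 without replicate 1 of the WT PBS group. Igtp and Iigp1 are immunity-related GTPases, which act on the vacuoles of intracellular parasites. Igtp was at 60.4, 28.3, 26.8, 27.6 and 26.5 CPM in WT mice given PBS and at 36.01, 42.5, 35.1, 40.8 and 45.97 CPM in WT mice given rCD5L. Igtp in CD5L KO mice was at 46.8, 35.7, 26.4 and 33.9 CPM with PBS and at 40.05, 52.6, 34.2, 49.8 and 57.9 CPM with rCD5L. Without replicate 1, the WT kidneys with PBS lay between 26.5 and 28.3 CPM and below every WT kidney with rCD5L. Igtp had log2 fold changes of 0.07 to 0.39 over the 4 comparisons, and the smallest edgeR adjusted p was 0.46.

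Iigp1 was at 103, 58.98, 45.3, 44.04 and 41.1 CPM in WT mice given PBS and at 59.8, 72.7, 59.3, 62.9 and 69.4 CPM in WT mice given rCD5L. Iigp1 in CD5L KO mice was at 95.8, 57.6, 42.3 and 62.4 CPM with PBS and at 79.5, 91.7, 38.00, 47.6 and 106 CPM with rCD5L. For Iigp1 the groups overlapped, and replicate 1 of the WT PBS group and replicate 5 of the CD5L KO rCD5L group were the highest.

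The classes were then compared by kidney. For each kidney, the median over a class of the log2 CPM minus the gene's median over 19 kidneys was taken. Replicate 1 of the WT PBS group had 0.11 for the type I class and 0.50 for the interferon-gamma class, while replicates 3, 4 and 5 of that group had -0.18, 0.03 and -0.11 for the type I class and -0.44, -0.38 and -0.45 for the interferon-gamma class. Within this group the interferon-gamma class spread more widely than the type I class. Among the CD5L KO mice given rCD5L, replicate 4 had -0.81 and -0.40, and replicate 5 had 0.14 and 0.45. The 5 WT kidneys with rCD5L lay between 0.04 and 0.14 for the type I class and between -0.04 and 0.21 for the interferon-gamma class, the narrowest range of the 4 groups in both.

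Within groups, the genes varied together, and those of the interferon-gamma class most closely. The median correlation of deviations from the group mean over 19 kidneys was 0.61 between type I typical genes, 0.80 between interferon-gamma typical genes and 0.56 between the classes, and over the 17 kidneys without replicates 3 and 4 it was 0.58, 0.87 and 0.58. The type I typical genes were thus hardly closer to each other than to the other class. The genes share libraries and cells, and no value over all genes was taken, so these are descriptions. The median within-group SD of log2 CPM was 0.298 for the type I class, 0.354 for the interferon-gamma class and 0.277 for all genes. In replicate 3 of the CD5L KO rCD5L group, Samd9l (GC content 38.8%) was -0.96 from its group mean on the log2 scale, and Oasl1 (GC content 56.3%) was 0.87.

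**Figure D5:**
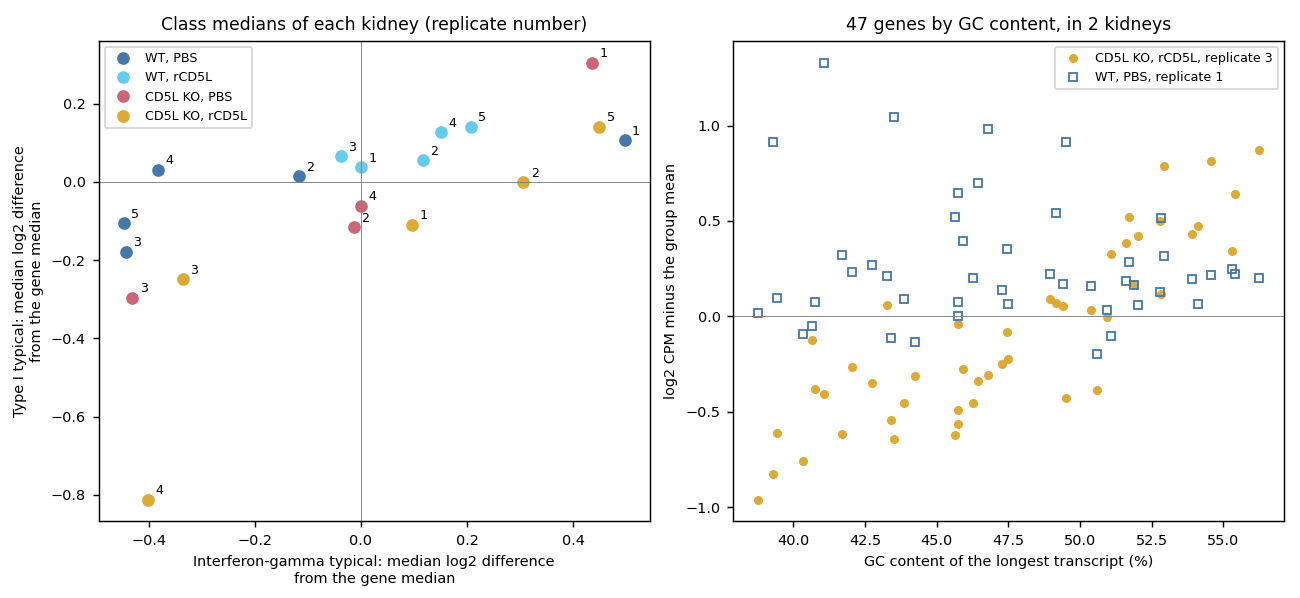
Left, the class medians of each kidney on the log2 scale, labelled by replicate number and coloured by group; right, the deviation of each gene from its group mean against the GC content of its longest transcript in 2 kidneys. Replicate 4 of CD5L KO with rCD5L has the lowest type I median on the left, and on the right the points of replicate 3 climb with GC content (Spearman rho 0.85) while those of WT with PBS replicate 1 do not (rho 0.01).

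Other genes of the pathway, taken from lists chosen with earlier results of these data known, were tested beside the 47. Of 40 further genes typical of type I interferon, 36 were tested for CD5L KO against WT with PBS and 4 were called, 2 higher and 2 lower in CD5L KO, near the 10.5% called of all genes. The edgeR log2 fold changes were 0.46 for Oas1c (adjusted p = 0.044) and 0.39 for Nmi (adjusted p = 0.026). They were -0.47 for Lgals9 (adjusted p = 0.01) and -0.46 for Lgals3bp (adjusted p = 0.013). Lgals9 is a galectin and Lgals3bp binds galectins. Of 14 alternative settings, including each kidney left out in turn, Oas1c was called in 4, Nmi in 8, and Lgals9 and Lgals3bp in 13 each. Of 24 further genes typical of interferon-gamma, 22 were tested and 0 were called. Of the receptors, signalling genes, sensors and inhibitors, 6, 13, 9 and 9 were tested and 0 were called. None of these lists held a called gene in the other comparisons.

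The chemokines Cxcl9 and Cxcl10 were not called in any comparison. Cxcl9, a chemokine typical of interferon-gamma, was at 30.8, 10.9, 11.6, 9.40 and 8.25 CPM in WT mice given PBS and at 31.5, 18.1, 12.8 and 22.1 CPM in CD5L KO mice given PBS. The WT replicate that was high in Igtp and Gbp2 was also the highest of its group for Cxcl9. The log2 fold change of Cxcl9 was 0.56 (95% interval -0.23 to 1.36, edgeR adjusted p = 0.36), or 1.07 and called (adjusted p = 0.018) without that kidney and 0.30 without replicate 1 of the CD5L KO PBS group (called in 1 of 14 alternative settings, adjusted p up to 0.68), and that of Cxcl10, which both interferons induce, was 0.25 (95% interval -0.26 to 0.75, edgeR adjusted p = 0.54), or 0.11 without replicate 4 and 0.45 without replicate 1 of the WT PBS group.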

How the data were processed

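RNA from whole obstructed kidneys of 19 mice was sequenced with random-primed, paired-end libraries. Per the labels and methods, the authors used Trimmomatic for trimming, HISAT2 for alignment to GRCm38 and featureCounts for counting, and deposited raw counts per gene. Versions, strand setting and the treatment of multi-mapped reads were not given in the sources used here. FPKM values deposited by the authors were used only to compare levels between genes. The authors tested genes with DESeq2. Samples were grouped by their labels, columns were matched to samples by library name, and 0 columns had no sample.

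The quasi-likelihood test of edgeR 4.0.16 (R 4.3.3) was run on the counts, with TMM scaling and genes kept by filterByExpr at a minimum count of 10. Benjamini-Hochberg adjustment was made over all genes tested, with a threshold of 0.05. A pairwise fit held its 2 groups and the interaction fit all 4. The standard error is the absolute log2 fold change divided by the square root of F. CPM are counts scaled by the TMM-adjusted library size, and log2 CPM used a prior count of 2. A log2 fold change of 1 is a 2-fold change. For the 36 pairs of kidneys within groups, the chi-square per degree of freedom of the counts was 6.63 to 319, so each was counted as a separate sample. A count of 0 allows up to 3 counts, which covers counting error only. Each kidney came from a separate mouse. Mice were allocated without formal randomization.

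GC content was that of the longest GENCODE vM21 transcript of a gene. Promoters came from RefSeq (GRCm38.p6). DESeq2 1.42.0, size factors by RLE, testing without the filter, a joint fit of all 19 kidneys, a block for the replicate number and leaving out each kidney were tried as alternatives. The tests were checked on simulated counts. The genes, their classes and the pathway and marker lists were chosen with earlier results of these data known. Values in every kidney are given for genes called in a pairwise comparison, which were 0, and for 14 genes chosen as examples of roles. Ifi27l2a, Rsad2 and Parp14 were added after their values were seen, as were the other genes named for their small p-values. Of the pathway lists, called genes and Ifng, Ifnb1, Cxcl9 and Cxcl10 are named, and 1 signalling gene is not reported here.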

Additional observations from a re-analysis of the deposited data

Results flagged for a closer look

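Each of the 47 genes was examined in each of the 4 groups for a kidney far from the rest of its group (Dixon's ratio at the 95% level), and 20 of 188 sets held such a kidney. For normally distributed values, about 1 in 20 would be flagged. The rule was not run over all genes, so the share cannot be read as particular to the 47. Since the genes vary together, the 188 sets are not independent. In WT mice given PBS, replicate 1 was the high kidney for 7 interferon-gamma typical genes, with Gbp6 at 15.2 CPM (next 5.87 CPM), Tgtp2 at 29.5 CPM (next 14.1 CPM), Iigp1 at 103 CPM (next 58.98 CPM), Igtp at 60.4 CPM (next 28.3 CPM), Irgm2 at 82.7 CPM (next 48.8 CPM), Ifi47 at 48.8 CPM (next 30.3 CPM) and Irf1 at 127 CPM (next 85.99 CPM). In CD5L KO mice given PBS, replicate 1 was the high kidney for 6 type I typical genes and Gbp3, with Ifit3 at 93.01 CPM (next 60.7 CPM), Ifit3b at 25.1 CPM (next 18.7 CPM), Rsad2 at 48.6 CPM (next 38.2 CPM), Dhx58 at 16.5 CPM (next 9.72 CPM), Rtp4 at 40.7 CPM (next 25.8 CPM), Ifi44 at 28.02 CPM (next 19.1 CPM) and Gbp3 at 88.9 CPM (next 55.5 CPM).

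The remaining 6 were spread over other kidneys. In CD5L KO mice given rCD5L, Rtp4 at 16.1 CPM (next 26.98 CPM) was low in replicate 4, Cmpk2 at 23.99 CPM (next 22.3 CPM) was high in replicate 4, and Samd9l at 88.5 CPM (next 187 CPM) was low in replicate 3. In WT mice given PBS, Eif2ak2 at 33.6 CPM (next 41.1 CPM) was low in replicate 3. In WT mice given rCD5L, Ifit1 at 32.98 CPM (next 28.2 CPM) was high in replicate 2 and Gbp3 at 58.7 CPM (next 65.3 CPM) was low in replicate 3.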

How the results depend on the processing

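For CD5L KO against WT with PBS, 1850 genes were called, 1015 to 2062 with 1 kidney left out and 12 with all 19 kidneys in 1 fit. The number called among the 47 was 0, or 2 with DESeq2 (Ifi27l2a and Oas2), 1 with RLE factors (against 10.6% of all genes) and 1 with no filter (against 5.03%), Ifi27l2a in both, and 0 to 4 with 1 kidney left out. For rCD5L in WT mice, 0 genes were called, or 508 with DESeq2, 137 with no filter and 0 to 39 with 1 kidney left out. Of the 47, 2 were called with DESeq2 (Parp14 and Oas3), 1 with no filter (Parp14, against 0.43% of all genes) and 0 to 3 with 1 kidney left out. For rCD5L in CD5L KO mice, DESeq2 called 3 genes, of which 0 were among the 47. For CD5L KO against WT with rCD5L, DESeq2 called 64 genes, 1291 were called with all 19 kidneys in 1 fit and 1 of the 47 (Rsad2), and 0 to 1 genes were called with 1 kidney left out. Without replicates 3 and 4 of the CD5L KO rCD5L group, a setting chosen after seeing the data, 644 genes and 2 of the 47 were called. The log2 fold change of Iigp1 in that comparison was -0.032 to 0.32 with 1 kidney left out and changed sign without replicate 5 of the CD5L KO rCD5L group. The cause of these shifts was not tested. Under all alternatives run, the class medians moved by less than 1 SD of the kidneys' class medians within groups, but some changed sign. Dropping 1 kidney can shift the mean of its group by only a fraction of the SD. For those settings the bound was therefore nearly fixed in advance and says little about stability. With 1 kidney left out, the interferon-gamma median was -0.09 to 0.38 for CD5L KO against WT with PBS and -0.28 to 0.05 for the interaction, and the type I median was -0.14 to 0.08 and -0.37 to -0.10.

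The replicate numbers were not treated as pairs in the main fits. Same-numbered kidneys had correlations of deviations between -0.19 and 0.17. The closest match in the other group bore the same number for 2 of 4 kidneys in each comparison that held the CD5L KO PBS group. It did for 0 of 5 in each of the other comparisons. An effect of order or batch was not tested. With the replicate block for CD5L KO against WT with PBS, 4 of the 47 genes were called (Stat2, Oasl2, Ifi27l2a and Ifi47), against 12.1% of all genes. The block left 0 of the 47 called in the other comparisons. Counts of the lowest genes, Oas3 and Mx2, were at least 27 and 20 per kidney, so depth limited the interferon genes more than their targets.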

Other observations

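The GAS and ISRE letters stood in the same arrangement in Igtp, Irgm2 and Tgtp2. In all 3 the first base of the GAS match lay 11 bases before that of the ISRE match. This spacing was noticed in the sequences and then counted over all RefSeq windows, where 5 of 27025 genes held it on the strand of the gene (Igtp, Irgm2, Tgtp2, Tgtp1 and Gm12185). The genes are copies of a family, and shared ancestry of the promoters was not tested.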
